A study of Mus musculus with 3 samples.

Results

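Secreted antagonists of bone morphogenetic proteins (BMPs), 2 BMP ligands and the Id genes that BMP signalling switches on were followed across the stromal cells of the mouse lymph node. The 8 members, the antagonists Grem1, Fst and Sostdc1, the ligands Bmp2 and Bmp4 and the targets Id1, Id2 and Id3, were taken by gene symbol from the 51912 genes of the count tables, and every symbol matched 1 gene. The cells came from C57BL/6 mice carrying the transgene Cxcl13-Cre/tdTomato. They were sorted as PDPN+ CD31- CD45- TdTomato+ cells, so that CXCL13-producing stroma was enriched and endothelial and blood cells were gated out. There were 3 libraries of single-cell RNA (10x 3' chemistry), and all mice had received antigen-bearing immune complexes (ICs). In the 2 libraries called 2-IC, the first IC was given 7 days and the second 24 hours before the cells were taken, and in the single 1-IC library, 1 IC was given 24 hours before. The titles of the 2-IC libraries agree on this, but their short descriptions name different time points, and the titles were followed. No library came from mice without an IC. The study's methods describe samples pooled from independent experiments, with lymph nodes of several mice pooled for each condition, but the labels do not say which mice went into which library. A p-value here sets differences between cell types against their variation from library to library, once each library's own level is taken out.

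BMPs are secreted ligands of the TGF-beta family that bind paired type I and type II serine/threonine kinase receptors, which phosphorylate Smad1, Smad5 and Smad9, and these enter the nucleus with Smad4. The Id genes are among their best known immediate targets, and Id proteins lack a DNA-binding domain and hold E proteins away from DNA. Gremlin 1 (Grem1) and sclerostin domain-containing 1 (Sostdc1) bind BMPs outside the cell, and follistatin (Fst) binds activins most tightly as well as some BMPs. In lymphoid organs Grem1 is known as a marker of fibroblastic reticular cells, the mesenchymal scaffold on which lymphocytes and dendritic cells move.

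A cell barcode entered the analysis with at least 200 genes, at most 10% mitochondrial UMIs (unique molecular identifiers, 1 per captured transcript) and 0 UMIs of 13 genes that the study had used to remove other cell types. Of 5486 barcodes, 2243 remained. The replicates 1 and 2 of 2-IC kept 1526 and 391 of them, with a median of 4701 and 14732 UMIs each, and the 1-IC library kept 326, with a median of 5979. Barcodes were then put into 5 gates by raw UMIs of 1 gene each, in this order of priority: Cr2 for follicular dendritic cells (FDC, 230 barcodes), Madcam1 for marginal reticular cells (MRC, 83), Tnfsf11 for interfollicular reticular cells (IFRC, 593), Fmod for T-B border reticular cells (TBRC, 100) and Inmt for medullary reticular cells (MedRC, 633). A further 156 barcodes held both Fmod and Inmt and were left out, and 448 held none of the 5 genes. The gates kept the names of the types, but not every other marker followed. Fcer2a averaged 198 CPM in the FDC gate and Ccl21a was highest in the TBRC gate. Ch25h, however, was higher in the MRC gate (102 CPM) than in the IFRC gate (38.7 CPM). Cxcl9 was higher in the IFRC gate (248 CPM) than in the MedRC gate (130 CPM). Summed over 8 FDC genes, of which the gates set Cr2 to 0 outside FDC, the level was 33928, 23099 and 39993 CPM in the FDC gate. It was 24130, 21617 and 29551 CPM in the MRC gate, against 3624 to 11912 CPM in the other 3 gates. Whether the MRC gate included FDCs without a Cr2 UMI was not tested. Endothelial genes were near 0 in every gate, at 0 to 22.2 CPM summed over 10 blood endothelial genes, of which the filter sets Cldn5, Egfl7 and Ly6c1 to 0. Summed over 5 lymphatic endothelial genes, of which the filter sets Lyve1 to 0, the level was 20.1, 16.8 and 34.2 CPM in the FDC gate. It was 25.4, 3.93 and 27.8 CPM in the MRC gate, against 0 to 2.14 CPM in the other 3 gates. Summed over 8 B cell genes, the level was 327 to 1467 CPM, with the filtered Cd79a and Cd79b at 0, and over 7 mural cell genes 612 to 1455 CPM. In total 76 barcode sequences were shared by the 2-IC libraries, 15 of them kept in both.

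Levels are given as CPM, UMIs of a gene per 1000000 UMIs in all barcodes of a gate and library. Library values are always in the order 2-IC replicate 1, 2-IC replicate 2, 1-IC. Gates were compared by edgeR's quasi-likelihood test on the 15 sums of UMIs (5 gates in 3 libraries) with the library as a block, each gate against the mean log2 level of the other 4 gates, FDC against MRC and MedRC against TBRC. The 5 gates of a library share 1 cell suspension and the contrasts share their sums. All 8 members were among the 7350 genes tested, and 21 of the 56 member contrasts passed at an adjusted p of 0.05. Without the block, 14 of those 21 did not pass.

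All 8 genes are protein-coding, and their positions on GRCm38 are given where each is first described. Upstream sequence was at hand for 4 members in the RefSeq promoter set (GRCm38.p6), and is shown for Grem1 and Bmp4, the antagonist whose lowest level was in FDCs and the ligand whose highest was in the TBRC gate, as the 250 bases before the annotated start, written 5′ to 3′ on the strand of the gene. Capitals mark matches to GGCGCC, a GC-rich element to which Smad1 can bind, or to CAGAC, a Smad3 and Smad4 element, and TGACGT, a cAMP-response core, was searched as well, all on both strands, and no matches overlapped.
Grem1, chr2:113758649-113758898, minus strand: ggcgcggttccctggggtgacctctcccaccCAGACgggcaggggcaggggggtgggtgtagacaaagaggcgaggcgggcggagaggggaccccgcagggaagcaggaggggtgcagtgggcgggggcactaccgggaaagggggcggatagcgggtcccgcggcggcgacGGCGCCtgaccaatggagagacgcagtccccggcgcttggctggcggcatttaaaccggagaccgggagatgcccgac
Bmp4, chr14:46390670-46390919, minus strand: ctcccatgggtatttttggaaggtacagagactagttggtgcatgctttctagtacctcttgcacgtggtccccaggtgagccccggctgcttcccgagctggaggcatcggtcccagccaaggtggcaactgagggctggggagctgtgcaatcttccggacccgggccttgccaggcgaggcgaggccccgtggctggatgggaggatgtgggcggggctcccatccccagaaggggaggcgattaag
The Grem1 window held GGCGCC once, 78 bases before the start, and CAGAC once, 219 bases before it, and the Bmp4 window held none of the 3. The windows of the targets Id3 and Id2 overlap annotated transcript and are not printed. Both lie wholly inside the gene positions given below, so their matches are not upstream of those genes. Counted from the start in the promoter set, Id3 held CAGAC at 167 and 68 bases before it and Id2 held GGCGCC at 231. Of 32851 promoters of the same length, 9.59% held GGCGCC, 42.2% CAGAC and 6.47% TGACGT, so the letters are a description of these windows and not of binding.

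**Figure D1:**
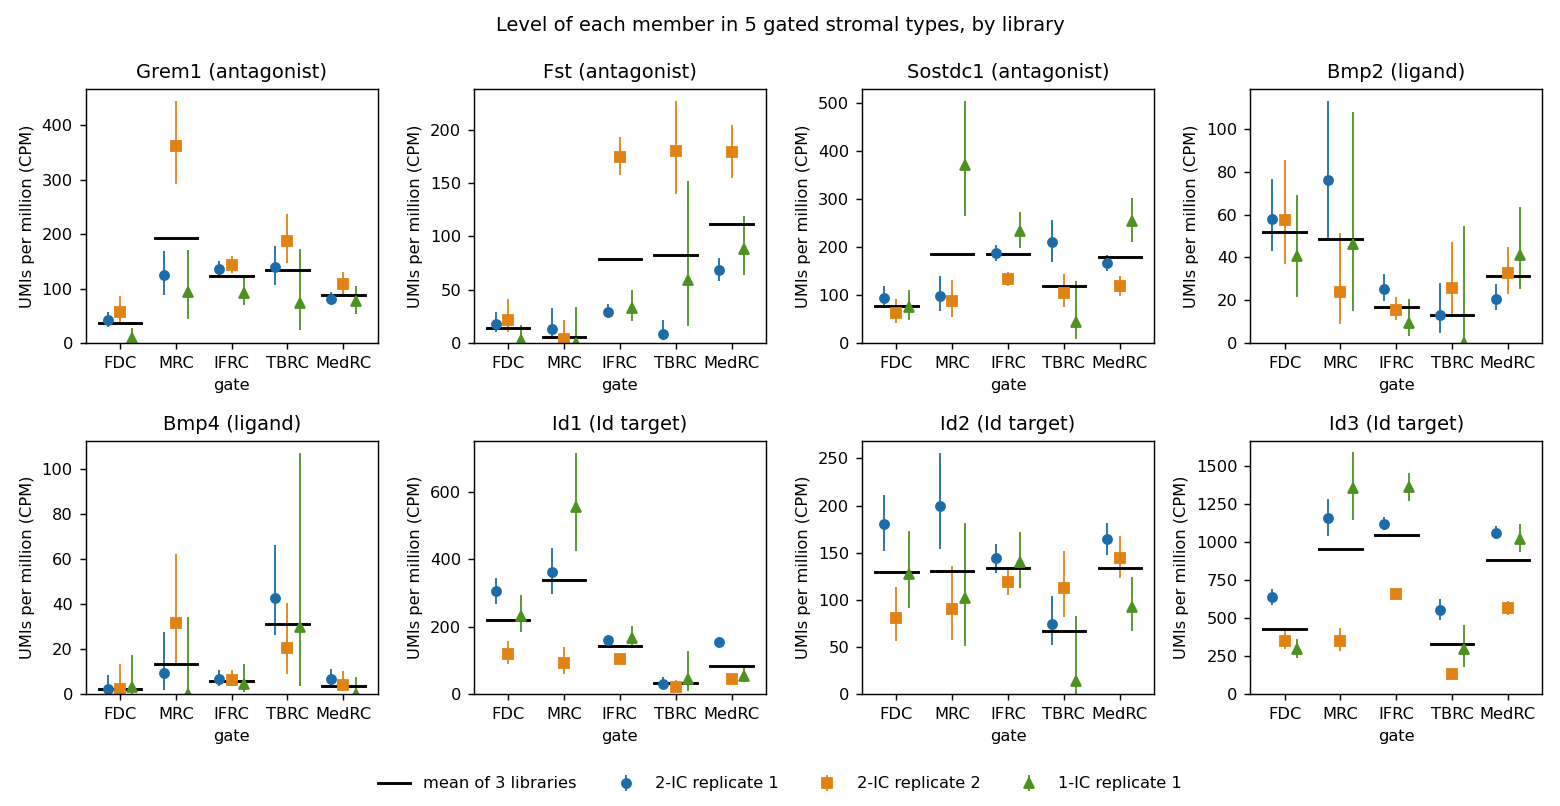
Level of each member (y axis, CPM, each panel on its own scale from 0) in the 5 gates (x axis). Points are the 3 libraries, vertical lines exact Poisson 95% intervals that cover counting error only, and horizontal bars the mean of the libraries. Grem1 is lowest in the FDC gate in all 3 libraries, Fst of 2-IC replicate 2 stands far above the other libraries in 3 gates, and Id1 is lowest in the TBRC gate.

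Grem1 (chr2:113746164-113758646, minus strand) was the member that set FDCs apart from the other stromal types. Its level in the FDC gate was 41.4, 57.6 and 9.34 CPM, against 124, 362 and 92.7 CPM in the MRC gate. It stood at 135, 143 and 91.9 CPM in the IFRC gate, at 139, 188 and 74.2 CPM in the TBRC gate and at 81.0, 109 and 76.3 CPM in the MedRC gate. All 3 FDC values lay below all 12 values of the other gates. By mean the order was MRC (193 ± 147 CPM, SD, n = 3), TBRC (134 ± 57.0), IFRC (123 ± 27.4), MedRC (88.8 ± 17.7) and FDC (36.1 ± 24.5), and the library values of neighbours overlapped down to MedRC. Grem1 was lower in the FDC gate than in the mean of the other 4 by 1.74 on the log2 scale (log2 difference -1.74, SE 0.26, edgeR adjusted p = 8.8e-06), in 3 of 3 libraries, and it passed under every one of 14 other settings (-2.69 to -0.85). Against the MRC gate alone the log2 difference was -2.25 (SE 0.32, edgeR adjusted p = 2.8e-05), with no overlap between the gates. That second call was lost when barcodes with contaminant genes were kept (-0.75, edgeR adjusted p = 0.181). It was also lost in barcodes thinned to 2000 UMIs (edgeR adjusted p = 0.351). For thinned fits, here and below, shallower barcodes were left out and the gates were drawn anew on the thinned counts. The FDC gate then held 83, 24 and 34 barcodes in place of 145, 35 and 50. The MRC gate held 34, 6 and 15 in place of 50, 16 and 17, so the cells compared differ as well as their depth.

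Grem1 was also higher in the MRC gate than in the mean of the other gates (log2 difference 1.06, SE 0.23, edgeR adjusted p = 0.00504), and 2-IC replicate 2 carried that call. There 16 barcodes held 92 Grem1 UMIs, 23 of them in 1 barcode, while the 50 barcodes of 2-IC replicate 1 held 39 and the 17 of the 1-IC library held 10. Without 2-IC replicate 2 the difference was 0.39 (edgeR adjusted p = 0.597). The call was also lost without the block, with contaminant barcodes kept and in thinned barcodes.

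Fst (chr13:114452290-114458951, minus strand) was most abundant in the MedRC gate and close to undetected in the MRC gate. The MedRC values were 68.2, 179 and 88.6 CPM (112 ± 58.7, SD, n = 3). In the MRC gate they were 12.7, 3.93 and 0 CPM, which rest on 4, 1 and 0 UMIs. In the 17 barcodes of the 1-IC library, where the count was 0, 3 UMIs would correspond to 27.8 CPM. The FDC gate gave 17.7, 21.6 and 3.11 CPM. In the IFRC gate Fst measured 29.3, 175 and 32.7 CPM, and in the TBRC gate 8.57, 180 and 59.4 CPM. By mean the order was MedRC, TBRC (82.7 ± 88.1), IFRC (78.9 ± 83.0), FDC (14.1 ± 9.75) and MRC (5.54 ± 6.50), and the library values of all neighbours overlapped except IFRC and FDC. Fst in the MedRC gate exceeded the mean of the others (log2 difference 2.09, SE 0.28, edgeR adjusted p = 6.1e-06) in 3 of 3 libraries and under all 13 other settings that could be fitted (1.93 to 2.52).

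The remaining Fst contrasts leaned on 1 library. In the MRC gate the log2 difference was -3.05 (SE 0.72, edgeR adjusted p = 0.0105), but -1.61 without 2-IC replicate 2 (edgeR adjusted p = 0.332) and -4.77 without 2-IC replicate 1 (edgeR adjusted p = 4.0e-04). In the IFRC gate it was 1.14 (SE 0.30, edgeR adjusted p = 0.0195), but 0.58 without 2-IC replicate 2 (edgeR adjusted p = 0.554) and 1.85 without 2-IC replicate 1 (edgeR adjusted p = 7.2e-04). DESeq2 did not pass the IFRC contrast either (adjusted p = 0.66). Both the MRC and IFRC calls were also lost without the block and with a gate at 2 UMIs, and the IFRC call with contaminant barcodes kept. The FDC value of -1.33 missed the threshold (SE 0.53, edgeR adjusted p = 0.0795).

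In 2-IC replicate 2, Fst was unevenly spread over barcodes with and without Thbs1, which encodes the matrix protein thrombospondin 1. Across its 391 kept barcodes, 608 of 923 Fst UMIs (65.9%) lay in 99 barcodes with at least 10 Thbs1 UMIs, which held 34.6% of all UMIs. These were deep barcodes, with a median of 19126 UMIs, and the part of depth was not tested. The same threshold marked 27 barcodes with 5 of 302 Fst UMIs in 2-IC replicate 1 and 3 barcodes with 3 of 73 in the 1-IC library. In the TBRC gate of 2-IC replicate 2, 45 of 70 Fst UMIs came from 1 barcode. With the Thbs1-rich barcodes left out, a choice made after the values were seen, Fst in 2-IC replicate 2 was 117 CPM in the IFRC gate, 80.4 in the TBRC gate and 85.2 in the MedRC gate. The MedRC values were then 69.4, 85.2 and 88.6 CPM, close together across libraries, while the IFRC value of 2-IC replicate 2 still exceeded the 30.2 and 29.0 CPM of the other libraries. The MRC contrast no longer passed (-2.24, edgeR adjusted p = 0.148).

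**Figure D2:**
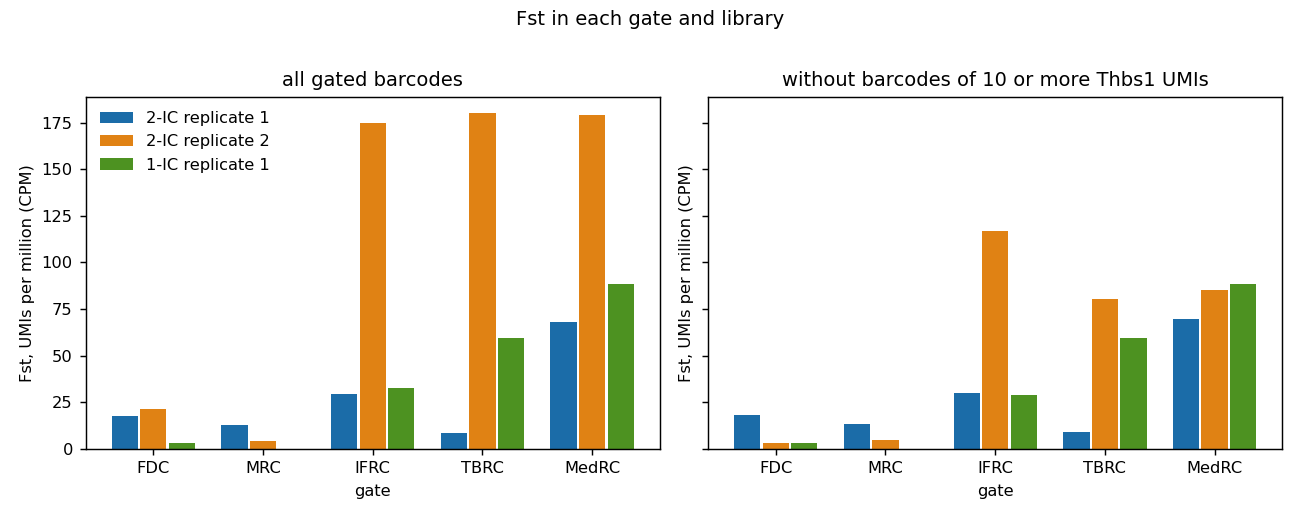
Fst level (y axis, CPM from 0) in the 5 gates (x axis) by library, for all gated barcodes (left) and without barcodes of at least 10 Thbs1 UMIs (right). Bars are single library values with no error shown. The MedRC value of 2-IC replicate 2 drops from 179 to 85.2 CPM, between the other 2 libraries, and its IFRC value drops from 175 to 117 CPM.

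Sostdc1 (chr12:36314139-36318452, plus strand) was lower in the FDC gate, and its order among the other types changed from library to library. Its FDC values were 94.6, 62.4 and 74.7 CPM (77.2 ± 16.3, SD, n = 3), against 187, 133 and 234 CPM in the IFRC gate and 166, 118 and 254 CPM in the MedRC gate. In the MRC gate it measured 98.4, 86.6 and 371 CPM, and in the TBRC gate 210, 105 and 44.5 CPM. The FDC values therefore overlapped those of the TBRC and MRC gates and not those of the other 2. The MRC (185 ± 161), IFRC (185 ± 50.3), MedRC (179 ± 68.8) and TBRC (120 ± 83.7) means followed each other with overlapping library values. The FDC difference was -1.01 (log2, SE 0.25, edgeR adjusted p = 0.00335), 3 of 3 libraries lower, and it no longer passed without the library block (edgeR adjusted p = 0.13) or in thinned barcodes (edgeR adjusted p = 0.113). No other Sostdc1 contrast passed, with differences from -0.78 to 0.42, though MedRC did in thinned barcodes (0.91, edgeR adjusted p = 0.00857) and with a gate at 2 UMIs (0.74, edgeR adjusted p = 0.00946), and both MedRC (0.49) and IFRC (0.51) without the filter on low counts.

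The ligands split between gates. Bmp2 (chr2:133552159-133562885, plus strand) had its highest mean in the FDC gate, at 58.0, 57.6 and 40.5 CPM. MRC barcodes held it at 76.2, 23.6 and 46.3 CPM, where 2-IC replicate 2, on 6 UMIs, lay below its TBRC and MedRC values. It measured 25.4, 15.5 and 9.35 CPM in the IFRC gate, 12.9, 25.7 and 0 CPM in the TBRC gate and 20.7, 32.5 and 41.2 CPM in the MedRC gate. By mean the order was FDC (52.0 ± 9.98, SD, n = 3), MRC (48.7 ± 26.4), MedRC (31.5 ± 10.3), IFRC (16.8 ± 8.09) and TBRC (12.9 ± 12.9), and all neighbours overlapped. In the FDC gate Bmp2 exceeded the mean of the others (log2 difference 1.07, SE 0.29, edgeR adjusted p = 0.00841), while the MRC contrast did not pass (0.85, SE 0.38, edgeR adjusted p = 0.256). The FDC direction turned when barcodes with contaminant genes were kept (-0.35, edgeR adjusted p = 0.421). The FDC gate then held 483, 148 and 125 barcodes in place of 145, 35 and 50, so the cells compared differ. The study also measured CR2 protein on B cells, which the filter removes through Cd79a and Cd79b. The part of B cells in that fit was not tested. In the same fit the MRC difference of Bmp2 was 3.08 (edgeR adjusted p = 1.2e-06), and its part in the turned FDC direction was not tested. Barcodes with 2 or more of the endothelial genes Cldn5, Egfl7 and Ly6c1, all of which the filter removes, held Bmp2 at 1277, 341 and 688 CPM. The FDC and MRC gates were also those with the most lymphatic endothelial RNA, though 3 of the 5 genes summed were at 0 in each. Blood endothelial RNA did not follow this order. Its means were 8.26 CPM in FDC, 7.4 in MRC, 14.2 in IFRC, 4.43 in TBRC and 12 in MedRC. The part of endothelial RNA in the Bmp2 difference was not tested.

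Bmp4 (chr14:46383520-46390669, minus strand) had its highest mean in the TBRC gate, at 42.9, 20.6 and 29.7 CPM (31.0 ± 11.2, SD, n = 3). These values rest on 20, 8 and 2 UMIs, and Bmp4 passed the filter on low counts through 2 TBRC sums and 1 MRC sum. Being tested and being higher in the TBRC gate are thus partly tied. Without that filter its TBRC difference was 2.32 (edgeR adjusted p = 2.5e-06). In the other gates it was scarce, with 2.37, 2.40 and 3.11 CPM in the FDC gate (2, 1 and 1 UMIs), 6.74, 6.47 and 4.68 CPM in the IFRC gate and 7.04, 4.40 and 0 CPM in the MedRC gate. Only the MRC gate, with 9.52, 31.5 and 0 CPM, overlapped the TBRC values. The TBRC difference was 2.37 (log2, SE 0.48, edgeR adjusted p = 0.00256), but 1.75 without 2-IC replicate 1 (edgeR adjusted p = 0.378) and 3.03 without 2-IC replicate 2 (edgeR adjusted p = 0.00342). MedRC against TBRC gave -2.57 (SE 0.55, edgeR adjusted p = 0.00576, no overlap), which was lost without 2-IC replicate 1 (edgeR adjusted p = 0.29) and without the block (edgeR adjusted p = 0.0909). In the FDC gate the difference was -2.06 (SE 0.72, edgeR adjusted p = 0.042). With 4 UMIs behind it, that call was lost under 6 settings, among them leaving out 2-IC replicate 1 (-1.54, edgeR adjusted p = 0.459) or 2-IC replicate 2 (-1.84, edgeR adjusted p = 0.17).

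Among the targets, Id1 (chr2:152736251-152737410, plus strand) varied most between types. It reached 305, 120 and 233 CPM in the FDC gate and 362, 94.4 and 556 CPM in the MRC gate, where 33 of 60 UMIs of the 1-IC library came from 1 barcode. In the IFRC gate it measured 160, 104 and 168 CPM and in the MedRC gate 154, 44.9 and 55.7 CPM. The TBRC gate held the lowest values, 30.0, 23.1 and 44.5 CPM, all of them below those of the other 4 gates. The last is the level of 3 UMIs in the 10 TBRC barcodes of the 1-IC library, just under the lowest MedRC value of 44.9 CPM. By mean the order was MRC (337 ± 232, SD, n = 3), FDC (220 ± 93.4), IFRC (144 ± 35.2), MedRC (84.8 ± 60.1) and TBRC (32.6 ± 10.9), and neighbours overlapped in their library values except MedRC and TBRC.

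Id1 was higher in the MRC gate (log2 difference 1.5, SE 0.23, edgeR adjusted p = 1.0e-04) and lower in the TBRC gate (-2.50, SE 0.35, edgeR adjusted p = 4.1e-05), each in 3 of 3 libraries and under all 14 other settings. It was higher by 1.11 in the FDC gate (SE 0.21, edgeR adjusted p = 1.7e-04). That call did not pass without the block (edgeR adjusted p = 0.0625), with contaminant barcodes kept (0.39, edgeR adjusted p = 0.152) or in thinned barcodes (edgeR adjusted p = 0.105). FDC and MRC were not shown to differ in Id1 (-0.32, SE 0.26, edgeR adjusted p = 0.627). MedRC exceeded TBRC by 1.64 (SE 0.40, edgeR adjusted p = 0.0173), a difference that fell to 0.79 without 2-IC replicate 1 (edgeR adjusted p = 0.689). The call was also lost with DESeq2, without the block, with a gate at 2 UMIs, in thinned barcodes and without Thbs1-rich barcodes.

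Id3 (chr4:136143497-136145755, plus strand) followed another order. It stood at 1120, 659 and 1361 CPM in the IFRC gate, 1155, 354 and 1353 CPM in the MRC gate and 1062, 565 and 1022 CPM in the MedRC gate. The FDC gate held 638, 353 and 296 CPM and the TBRC gate 553, 134 and 297 CPM. The means of the first 3, 1047 ± 356, 954 ± 529 and 883 ± 276 CPM (SD, n = 3), came from overlapping library values, as did those of FDC (429 ± 183) and TBRC (328 ± 211). 2-IC replicate 2 was the lowest library in 4 of the 5 gates.

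The test, which compares gates within a library, called Id3 higher in the IFRC gate (0.83, SE 0.18, edgeR adjusted p = 0.00424) and in the MedRC gate (0.64, SE 0.18, edgeR adjusted p = 0.0133). It called Id3 lower in the TBRC gate (-1.24, SE 0.23, edgeR adjusted p = 0.00104) and in the FDC gate (-0.65, SE 0.20, edgeR adjusted p = 0.0221). MedRC exceeded TBRC by 1.51 (SE 0.26, edgeR adjusted p = 7.0e-04) without overlap, and FDC lay below MRC (-0.86, SE 0.25, edgeR adjusted p = 0.0473). None of the 6 calls passed without the block, where the adjusted p ran from 0.321 for TBRC to 0.646 for IFRC. The FDC call was also lost without 2-IC replicate 1 (-0.61, edgeR adjusted p = 0.116) and without the 1-IC library (-0.37, edgeR adjusted p = 0.219), the FDC against MRC call without 2-IC replicate 1 (-0.94, edgeR adjusted p = 0.117) and without the 1-IC library (-0.45, edgeR adjusted p = 0.435), and the MedRC call without 2-IC replicate 2 (0.56, edgeR adjusted p = 0.0514). In the TBRC gate Id3 differed by -1.82 without 2-IC replicate 1 (edgeR adjusted p = 3.2e-04), but that call was lost in thinned barcodes. DESeq2 did not pass the FDC, MedRC or FDC against MRC contrasts of Id3. Leaving out barcodes under 1% Malat1 also lost the FDC and FDC against MRC calls. The FDC against MRC call was further lost with contaminant barcodes kept and without Thbs1-rich barcodes.

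Id2 (chr12:25093799-25097140, minus strand) had 4 gate means close together. Its values were 180, 81.5 and 128 CPM in the FDC gate, 200, 90.5 and 102 CPM in the MRC gate and 144, 119 and 140 CPM in the IFRC gate. It measured 165, 144 and 92.8 CPM in the MedRC gate and 75.0, 113 and 14.8 CPM in the TBRC gate. The first 4 means lay between 130 and 134 CPM and the TBRC mean was 67.7 ± 49.6 CPM (SD, n = 3). No Id2 contrast passed, the nearest being TBRC against the others (-0.67, SE 0.25, edgeR adjusted p = 0.142), which passed without 2-IC replicate 2 (-1.20, edgeR adjusted p = 0.0186).

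**Figure D3:**
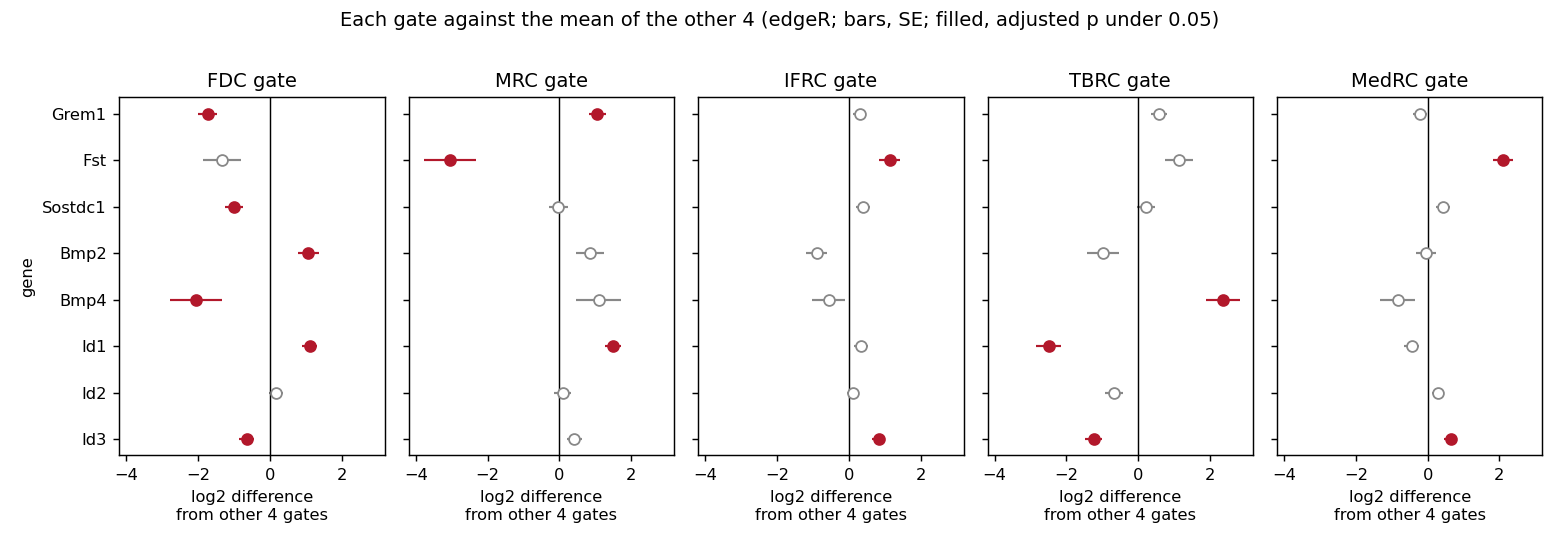
Log2 difference of each member (y axis) between 1 gate and the mean of the other 4 (x axis, panels by gate). Points are edgeR estimates from 15 sums with the library as a block, horizontal lines 1 SE, and filled points passed at an adjusted p of 0.05. The FDC panel holds 6 filled points, with Grem1, Sostdc1, Bmp4 and Id3 on the lower side and Bmp2 and Id1 on the higher side.

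Read against all genes tested, the FDC gate held 2 of 8 members among its higher genes, where 12% of all genes were called higher, and 4 of 8 among its lower genes, where 8.72% were. The median log2 difference of the members there was -0.83, beside 0.01 over all genes. In the MRC gate 2 members were higher (2.53% of all genes) and 1 lower (1.97%), with a median of 0.63 beside -0.01. The IFRC gate had 2 higher (2.95%), the TBRC gate 1 higher (2.72%) and 2 lower (1.54%), and the MedRC gate 2 higher (9.16%). FDC against MRC had 2 lower (1.76%), and MedRC against TBRC 2 higher (1.96%) and 1 lower (1.31%). These shares rest on 8 genes. The member higher in TBRC was Bmp4, also counted as lower in FDC and in MedRC against TBRC. It passed the filter on low counts through 2 TBRC sums and 1 MRC sum. For Bmp4, being tested and being called in these contrasts are thus partly tied. Leaving out 1 library also added calls. Without 2-IC replicate 1, Bmp2 was lower in IFRC (-1.32), Fst higher in TBRC (2.15) and Id1 lower in MedRC (-1.09), and without 2-IC replicate 2, Grem1 was higher in IFRC (0.62) and Fst higher in MedRC than in TBRC (2.22).

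Immediate-early genes differed in some of these contrasts and not in others. The summed level of 12 genes known to respond to tissue dissociation (Fos, Jun, Egr1 and the like) ran from 10043 to 15884 CPM in the FDC gate, 8757 to 18676 in MRC, 18831 to 21888 in IFRC, 22258 to 25284 in TBRC and 29043 to 31639 in MedRC. Of the 12, 8 were lower and 1 higher in the FDC gate, and 10 were higher in the MedRC gate. The MRC gate had 5 lower and 1 higher, the IFRC gate 1 lower and 1 higher, and the TBRC gate 2 higher. MedRC against TBRC had 3 higher. FDC against MRC, where Grem1 and Id3 were called, had 0 of the 12 called (median log2 difference 0.01). The nuclear RNAs Malat1 and Neat1 together were 59134 to 107383 CPM in the FDC gate and both were higher there. Their part in the member differences was not tested.

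Of all 22026 genes with a UMI in the gates, 7350 passed the filter on low counts. Of 63 pathway genes outside the 8 members, 33 did. Of their 231 contrasts 32 were called (13.9%, beside 8.32% of the contrasts of all genes tested), 12 of them also in every fit with 1 library left out that could be made, and 18 were lost without 2-IC replicate 1. Every value given as higher or lower is a log2 difference with an edgeR adjusted p under 0.05.

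Of the 13 other antagonists, 5 were tested, with 2 higher and 1 lower in the FDC gate, where 12% and 8.72% of all genes were (median 0.15, beside 0.01 over all genes). The secreted BMP binder Chrdl1 was lower in the FDC gate (-1.24) and higher in the IFRC (0.73) and MedRC (0.77) gates, the IFRC call being lost without the 1-IC library (0.63, edgeR adjusted p = 0.0533). Nbl1, a further secreted BMP binder, was higher in the FDC gate (0.89), lower in the TBRC gate (-2.20) and higher in MedRC than in TBRC (1.95). Without 2-IC replicate 1 these were 0.44, -1.60 and 1.54 and none passed, nor did the last without the 1-IC library (1.78). Fstl1, a follistatin-like glycoprotein, was higher in the FDC gate (0.47) but not without 2-IC replicate 1 (0.40, edgeR adjusted p = 0.243). Twsg1, which binds BMPs together with chordin, was called in no contrast.

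Of 15 other ligands, 4 were tested. Inhbb, which encodes the beta B subunit of activin and inhibin, measured 23.7, 26.4 and 24.9 CPM in the FDC gate and at most 9.52 CPM in any sum of the other gates. It passed the filter on low counts through its FDC sums alone, so being tested and being higher there (2.76) are tied. Without the filter the log2 difference was 2.74 (edgeR adjusted p = 1.2e-09). It was lower in the MedRC gate (-2.12), though not without 2-IC replicate 1 (-1.91) or 2-IC replicate 2 (-1.90). Gdf10, also called Bmp3b, was high in the MedRC gate, at 74.8, 83.5 and 35.0 CPM (2.40, edgeR adjusted p = 2.7e-07, kept under every setting that could be fitted), and exceeded the TBRC gate by 2.67. Bmp3, a relative that can antagonise BMP signalling, was lower in the MedRC gate (-1.51), again under every setting fitted.

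Other Bmp3 calls were less firm. It was higher in the MRC gate (1.13), but neither without 2-IC replicate 1 (1.25, edgeR adjusted p = 0.0751) nor without 2-IC replicate 2 (1.06, edgeR adjusted p = 0.0871). It was lower in MedRC than in TBRC (-1.63), with -1.68 and -1.32 and no pass in the same fits. Its lower value in the IFRC gate (-0.75) passed in no fit with 1 library left out (-0.97 to -0.61). Tgfb1 was called in none.

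Of 9 receptors and coreceptors tested, 1 was called in the FDC gate, the TGF-beta type I receptor gene Tgfbr1 (1.38). It was higher there, as were 12% of all genes. Tgfbr1 passed the filter on low counts through 3 FDC sums and 1 MRC sum, so being tested and being higher there are tied. The activin receptor gene Acvr2a (1.05) and the betaglycan gene Tgfbr3 (0.41) were higher in the MedRC gate, where 9.16% of all genes were. Acvr2a did not pass without 2-IC replicate 1 (0.82), and Tgfbr3 passed in no fit with 1 library left out (0.40 to 0.43). Bmpr2 and Tgfbr2 were called in none.

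Of 7 transducers, Smad1 (0.62), Smad4 (0.50) and Smurf1 (1.01), a ubiquitin ligase acting on Smads, were higher in the FDC gate, where 12% of all genes were, and Smad3 was higher in the MedRC gate (1.10). All 4 calls were lost without 2-IC replicate 1 (0.49, 0.58, 1.16 and 0.98), that of Smad4 also without the 1-IC library (0.30) and that of Smurf1 without 2-IC replicate 2 (0.78). With contaminant barcodes kept, the signs of Smad1 (-0.28), Smad4 (-0.11) and the antagonist Fstl1 (-0.29) in the FDC gate turned. Smurf1 passed the filter on low counts through 3 FDC sums, 1 MRC sum and 1 MedRC sum. Smad3 passed it through 2 MedRC sums, 1 IFRC sum and 1 TBRC sum. For both, being tested and being higher are partly tied. Smad5 was called in none.

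Of 9 other targets and feedback genes, 5 were tested, with 3 higher in the MedRC gate, where 9.16% of all genes were (median 0.51, beside 0.01 over all genes). Id4 was higher in the IFRC (1.59) and MedRC (1.92) gates, and MedRC exceeded the TBRC gate by 3.0. It passed the filter on low counts through 2 IFRC and 2 MedRC sums alone, so being tested and being higher there are tied. Without 2-IC replicate 1 it could not be fitted. Bambi, a decoy receptor induced by the pathway, was higher in the MedRC gate than in the mean of the others (1.17) and than in TBRC (1.10), the second not without 2-IC replicate 1 (1.32) or 2-IC replicate 2 (1.07). The homeobox gene Msx1 was higher in IFRC (0.82). Its lower value in FDC (-0.72) was lost without the 1-IC library (-0.50), and its higher values in MedRC (0.51) and in MedRC against TBRC (1.04) were lost without 2-IC replicate 1 (0.28 and 0.63). Smad7 was called nowhere.

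Among the E protein genes whose products Id proteins bind, Tcf3 was higher in the FDC gate (0.62), though not without 2-IC replicate 1 (0.56, edgeR adjusted p = 0.22) or the 1-IC library (0.56, edgeR adjusted p = 0.0616). Tcf4 and Tcf12 were called in no contrast. FDC against MRC, where 5.14% of all genes were called, called no gene of these lists.

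Within the FDC gate, barcodes differed by Madcam1, a split chosen after the values were seen and given without a test. Madcam1 was detected in 56, 16 and 32 of its barcodes and not in 89, 19 and 18. Grem1 measured 0, 16.5 and 12.5 CPM with Madcam1, on 0, 3 and 3 UMIs, and 74.7, 89.2 and 0 CPM without it. In the 2-IC libraries the counting intervals of the Grem1 values did not overlap. In the 18 barcodes without Madcam1 of the 1-IC library, where Grem1 and Bmp2 had a count of 0, 3 UMIs would correspond to 36.7 CPM. Id1 was higher with Madcam1 in every library, at 454, 215 and 292 CPM against 186, 46.7 and 61.2 CPM. Bmp2 was 87.6, 66.1 and 54.3 CPM with Madcam1 and 34.1, 51.0 and 0 CPM without.

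Id3 went the other way in the 2-IC libraries, with 390 and 187 CPM in barcodes with Madcam1 against 836 and 480 CPM without. In the 1-IC library it was 334 CPM with Madcam1 and 184 CPM without. The barcodes with Madcam1 also held more Cr2 UMIs, at 1484, 2021 and 1148 CPM against 747, 875 and 1065 CPM. They held less Fos in the 2-IC libraries, at 2159 and 1360 CPM against 5792 and 5242 CPM, and similar Fos in the 1-IC library (2839 and 2656 CPM). The part of Fos and of depth in the split was not tested.

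**Figure D4:**
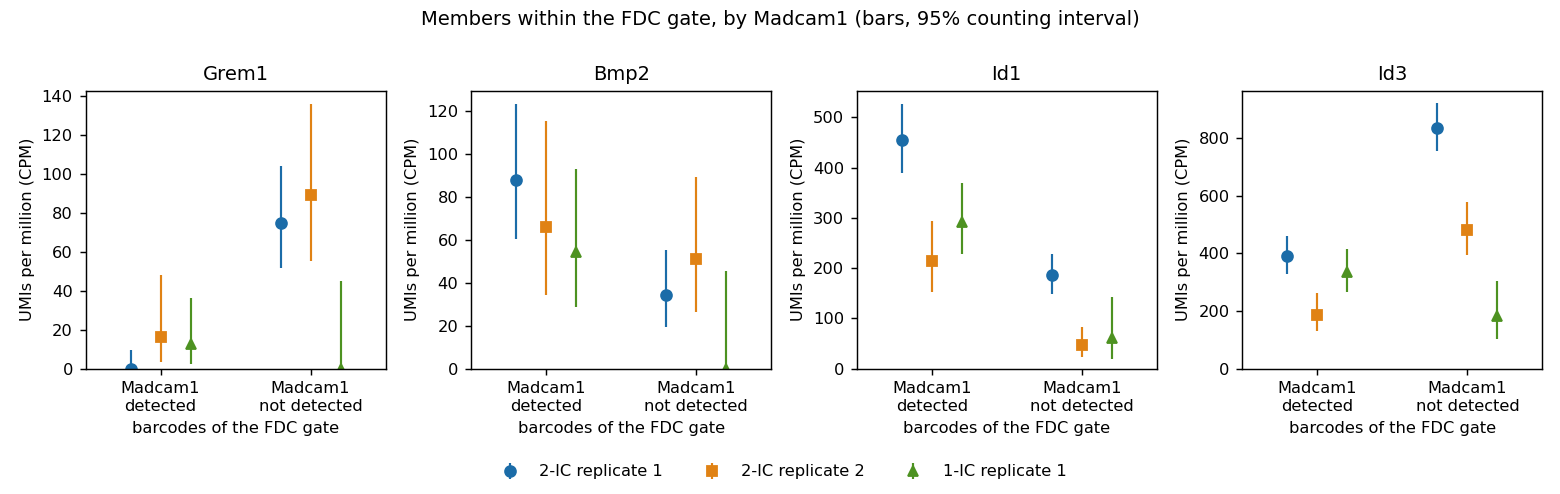
Levels of Grem1, Bmp2, Id1 and Id3 (y axis, CPM from 0) in FDC-gate barcodes with and without a Madcam1 UMI (x axis). Points are libraries and vertical lines exact Poisson 95% intervals of the counts. Id1 is higher with Madcam1 in all 3 libraries, and Grem1 is lower with Madcam1 in the 2-IC libraries.

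The 1-IC condition had 1 library, so it was set beside the 2-IC libraries without a test. A gene counted as apart when the 1-IC value lay at least 2-fold outside both 2-IC values, among genes reaching 50 CPM in a library. Grem1 was apart and lower in the FDC gate, where 7.13% of genes were apart. In the MRC gate Sostdc1 was apart and higher (16.2% of genes), with 14 of its 40 UMIs in 1 barcode. In the TBRC gate Sostdc1 and Id2 were apart and lower (19.1% of genes), on 3 and 1 UMIs in 10 barcodes. No member was apart in the IFRC or MedRC gates, which held the most barcodes.

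The same rule, applied to 2-IC replicate 2 after its values were seen, set more members apart. In the MRC gate Grem1 was higher and Id1 and Id3 were lower (12.2% of genes). Fst was higher in the IFRC gate (4.67% of genes), in the TBRC gate, where Id3 was lower (9.64%), and in the MedRC gate (4.72%). That made 7 pairs of member and gate in which 2-IC replicate 2 was apart, against 4 for the 1-IC library and 2 for 2-IC replicate 1, where Fst was lower in the TBRC gate (4.55% of genes) and Id1 higher in the MedRC gate (0.686%). Depth moves with this, since 2-IC replicate 2 had the highest median UMIs per barcode, and its part was not tested.

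Shares of barcodes with a UMI were set against barcodes of B cells (Cd79a and Cd79b detected), which should lack the antagonists and ligands. All barcodes were thinned to 2000 UMIs for this, shallower ones being left out. Unlike in the thinned fits, the gates stayed as drawn on the full counts. Unthinned median depth was 5149, 7532 and 3414 UMIs in B cell barcodes and 5166, 10091 and 4837 in the FDC gate. Grem1 was found in 18.7, 16.8 and 18.2% of thinned IFRC barcodes and in 7.44, 2.94 and 2.38% of FDC barcodes, against 3.88, 3.29 and 3.14% of B cell barcodes. Thus the thinned FDC share, 1 barcode in each of the last 2 libraries, did not exceed the B cell share there. Unthinned, Grem1 was found in 11.7, 20 and 4% of FDC barcodes and in 10.3, 15.6 and 5.97% of B cell barcodes.

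Fst in the FDC gate (1.65, 2.94 and 2.38% of thinned barcodes) also lay near the B cell shares (1.80, 3.29 and 1.57%), whereas in the MedRC gate it was found in 10.1, 18.3 and 13.2%. Unthinned, these Fst shares were 5.52, 8.57 and 2% in FDC, 7.42, 12.3 and 3.48% in B cell and 20, 41.8 and 30.9% in MedRC barcodes. Bmp2 was found in 7.44, 14.7 and 4.76% of FDC barcodes, above the 1.52, 1.97 and 0% of B cell barcodes, and unthinned in 16.6, 22.9 and 18.0% against 4.82, 11.0 and 2.49%. Bmp4 in the FDC gate (0.826, 0 and 0%) rested on 1 barcode, beside 0.416, 0.658 and 0.524% of B cell barcodes. Unthinned, those Bmp4 shares were 1.38, 2.86 and 2% against 1.85, 3.25 and 1.99%.

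Id3 was found in 47.9, 29.4 and 31.0% of thinned FDC barcodes and in 30.7, 14.5 and 30.4% of B cell barcodes, so that in the 1-IC library the FDC share did not stand above that of all B cell barcodes. Unthinned, these shares were 64.8, 51.4 and 46.0% and 52.5, 47.4 and 43.8%. Of the 809, 154 and 201 B cell barcodes, most in the 2-IC libraries also carried stromal RNA. In the 109, 27 and 150 of them with no UMI of Col1a1, Col1a2, Col3a1 or Dcn, the antagonists, ligands and Id1 were at or under 5.37 CPM in every library. Grem1 was at 2.44, 5.37 and 0 CPM there, on 1, 1 and 0 UMIs, against 35, 24 and 3 UMIs in the FDC gate, and Fst had 0 UMIs in all 3 libraries, against 15, 9 and 1. These barcodes were chosen for lacking stromal RNA, so their low Grem1 and Fst are tied to that choice and set no level of free RNA. In all B cell barcodes Grem1 was at 25.6, 99 and 22.8 CPM and Fst at 13.4, 85.8 and 26.7 CPM. The FDC gate held 9.34 to 57.6 CPM of Grem1 and 3.11 to 21.6 CPM of Fst, in the 1-IC library on 3 and 1 UMIs. Whether these levels exceed free RNA was not tested. In the barcodes without collagen or Dcn UMIs, Id3 remained at 110, 21.5 and 141 CPM and was found in 22.4, 7.41 and 22.9% of thinned barcodes.

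Antagonists and ligands were found together in few barcodes. In thinned barcodes of all libraries, a UMI of Grem1, Fst or Sostdc1 was found in 19.3% of the FDC gate, 41.9% of MRC, 44.2% of IFRC, 31.6% of TBRC and 42.2% of MedRC. Bmp2 or Bmp4 was found in 8.63, 9.46, 4.77, 9.47 and 5.57%, in the same order. Both were found together in 3 of 197 FDC barcodes (1.52%), 1 of 74 MRC and 13 of 566 IFRC barcodes (2.30%). In TBRC they were found together in 3 of 95 (3.16%) and in MedRC in 16 of 574 (2.79%). These counts pool the libraries. By library the FDC counts were 3 of 121, 0 of 34 and 0 of 42. Their exact 95% intervals were 0.514 to 7.07, 0 to 10.3 and 0 to 8.41%. The FDC share with an antagonist was 24.8, 14.7 and 7.14% by library. Pooled, an antagonist was found in 17.6% of FDC barcodes with a ligand and 19.4% of those without. The pooled shares were 48.1 and 44.0% in IFRC and 50 and 41.7% in MedRC. In MRC and TBRC, where 7 and 9 barcodes held a ligand, they were 14.3 and 44.8%, and 33.3 and 31.4%. The libraries did not agree in direction. MedRC gave 60.9 against 39.7%, 20 against 48.1% and 25 against 45.8%, on 23, 5 and 4 ligand barcodes. FDC gave 30 against 24.3%, 0 against 17.2% and 0 against 7.5%, on 10, 5 and 2. IFRC gave 40.9 against 42.6%, 100 against 47.3% and 66.7 against 44.6%, on 22, 2 and 3. At this depth a missing UMI does not show a missing transcript. In the FDC gate of 2-IC replicate 1, Id3 was read in 88.9% of barcodes with Id1 and in 36.2% of those without. In that library the shares were 85.3 and 68.4% in MedRC, 69.2 and 59.4% in MRC and 66.7 and 53.3% in TBRC. Only its IFRC gate went the other way, at 66.3 and 70.6%. The IFRC shares were 68 and 48.1% in 2-IC replicate 2 and 78.9 and 74.1% in the 1-IC library. Of the 3 barcodes with Id1 in the FDC gate of 2-IC replicate 2, 0 held Id3.

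The genes whose pattern over the 15 sums was most like a member, by Pearson's r of log2 CPM with the library mean removed, reached 0.87 to 0.96 for the 24 genes that a rule of 3 each gives. Those of Grem1 included Nudt4 (0.93) and Ifitm1 (0.91), and those of Id1 were Smoc1 (0.91), Calcrl (0.90) and Blnk (0.90). Those of Id3 were Meox2 (0.92), Ralgps2 (0.92) and CT010456.3 (0.91). For Bmp4 they were As3mt (0.88), Fam53b (0.87) and Elmo1 (0.87), on few UMIs. These values describe 15 points from 3 libraries, picked as the highest of all genes tested.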

How the data were processed

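UMI counts per gene and barcode of 3 libraries were used as the authors deposited them, made with Cell Ranger on GRCm38 per the file headers and submitters' notes (version 5.0.0 in the header). Filters and gates are those given in the report, no doublet caller was run, and barcodes with contaminant genes (1607, 365 and 298) were removed. The study pooled libraries and tested cells; here UMIs were summed per library and gate and tested with edgeR 4.0.16 (R 4.3.3, TMM, filterByExpr, quasi-likelihood, Benjamini-Hochberg over all 7350 genes tested), with library as a block since sums of a library share a suspension, leaving 8 residual degrees of freedom. SE is the log2 difference over the root of F. DESeq2 1.42.0, other filters, gates and left-out libraries were alternatives. The fit was tested on simulated data. Descriptions of the 2-IC libraries disagree in the labels, and samples were grouped by title. Named genes are the 8 members, and pathway genes that were called or among the 3 highest of their list. Members and lists were chosen with earlier results of these data known. Intervals are exact (Poisson or binomial, 95%) and cover counting error only. Gene positions came from GENCODE on GRCm38. One gene that the likeness rule gives is not reported here.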

Additional observations from a re-analysis of the deposited data

Results flagged for a closer look

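In 5 contrasts of members other than Bmp4, the single 1-IC library moved one way and both 2-IC libraries the other. The difference between conditions was not tested, since 1-IC had 1 library. Grem1 in the MedRC gate against the mean of the other gates was 0.56 in the 1-IC library (log2 ratio) and -0.29 and -0.49 in the 2-IC libraries. Against the TBRC gate alone it was 0.04, -0.76 and -0.77 in the same order. Sostdc1 in the MRC gate was 1.62 above the other gates in the 1-IC library and at -0.67 and -0.22 in the 2-IC libraries, and in the TBRC gate it was at -2.12, 0.68 and 0.13. The 1-IC sums of these gates came from 17 MRC and 10 TBRC barcodes. Id2 in FDC against MRC was 0.32, -0.15 and -0.15.

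Bmp2 appeared in barcodes that the comparisons do not use. Barcodes with at least 1 UMI of 2 or more of Cldn5, Egfl7 and Ly6c1, removed by the contaminant filter, held Bmp2 at 1277 CPM in 2-IC replicate 1 (22 barcodes, exact 95% interval 1117 to 1454), 341 CPM in 2-IC replicate 2 (4 barcodes, 255 to 447) and 688 CPM in the 1-IC library (5 barcodes, 457 to 994). The highest gated value was 76.2 CPM, in the MRC gate of 2-IC replicate 1.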

How the results depend on the processing

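Of the 21 called member contrasts, 4 passed under every alternative (Grem1 in FDC, Id1 in MRC and TBRC, Fst in MedRC). Of 284 refits of the 21, 229 passed in the same direction, 54 no longer passed and 1 reversed, Bmp2 in FDC at -0.35 with contaminant barcodes kept, and 10 more could not be fitted as the gene failed the filter on low counts. With these barcodes kept, Fstl1 (-0.29), Smad1 (-0.28) and Smad4 (-0.11) in FDC reversed too, and so did Bmp2 in FDC against MRC (-2.74, from 0.18, edgeR adjusted p = 9.6e-05 there). Another 30 refits called a member contrast not called above. Of 360 recomputed mean levels, 16 moved by more than the spread between libraries. The cause of these changes was not tested. Genes called numbered 1521 for FDC, 331 for MRC, 391 for IFRC, 313 for TBRC, 1108 for MedRC, 378 for FDC against MRC and 240 for MedRC against TBRC. In the same order, no replicate block gave 696, 90, 25, 72, 291, 120 and 25, and 14 of the 54 lost passes fell there. Thinning to 2000 UMIs, with the gates drawn anew, gave 478, 124, 140, 136, 427, 84 and 76, with 6 of the lost passes. Leaving out 1 library gave 918 to 1304, 160 to 265, 166 to 292, 153 to 357, 578 to 872, 210 to 282 and 119 to 220, the 2-library fits having fewer sums. Keeping contaminant barcodes gave 3432 for FDC, 989 for MRC and 1527 for FDC against MRC. No filter on low counts gave 497 for MRC, 595 for IFRC and 363 for MedRC against TBRC. DESeq2 gave 256 for IFRC, giving barcodes with Fmod and Inmt to the higher gene gave 550 for TBRC, a gate at 2 UMIs gave 144 for MedRC against TBRC, and leaving out barcodes under 1% Malat1, chosen after seeing the data, gave 231 for FDC against MRC. DESeq2 size factors in place of TMM changed no split of calls by 10 percentage points.

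Genes apart in the 1-IC library numbered 278 in FDC, 700 in MRC, 80 in IFRC, 743 in TBRC and 104 in MedRC. A minimum of 200 CPM gave 63, 88, 12, 69 and 15, contaminant barcodes kept gave 136 in FDC, 372 in MRC and 476 in TBRC, and a gate at 2 UMIs gave 168 in IFRC. Depth limits the small gates, where 3 UMIs correspond to 27.8 CPM in MRC and 44.5 CPM in TBRC of the 1-IC library.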

Other observations

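Barcodes of the IFRC gate differed in Fst by Inmt, the gene of the MedRC gate, a split chosen after the values were seen and given without a test. Fst was 39.4 CPM with Inmt and 7.53 CPM without in 2-IC replicate 1, and 52.7 and 7.12 CPM in the 1-IC library. In 2-IC replicate 2 it was 151 CPM with Inmt and 272 CPM without.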
